A study of Mus musculus with 8 samples.

Results

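The 36 genes described here are a signature of microglia and macrophages, and all 36 were found by symbol in the deposited table of 25477 genes. They comprise 14 pan-myeloid genes, 9 genes of homeostatic (resting) microglia, 8 genes of disease-associated (activated) microglia, 3 genes of immune-cell signalling and 2 macrophage genes. Polyadenylated RNA was read in 8 mouse retina libraries named for choroidal neovascularization (CNV), the growth of choroidal vessels towards the retina. In 4 of them the genotype was PD-L1 knockout, and the other 4 were labelled control (titled WT). Cd274 encodes PD-L1, a ligand of the inhibitory receptor PD-1 on T cells, and the series title links its loss to microglial activation. The sources used here do not state the strain, age, deleted part of Cd274 or way of inducing CNV, and retinas without CNV were not analysed here. Nothing says that the libraries came from separate animals, so each p-value reflects the spread among 4 libraries a group, which may be technical.

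Microglia are macrophages that settle in the retina before birth. At rest they survey the neural layers and carry receptors for nucleotides and lipids, such as P2RY12 and GPR34. After injury they take up debris, lose some of these receptors and switch on a programme driven in part by the lipid receptor TREM2. Many of their surface receptors have no signalling tail of their own and work through the small adaptors TYROBP and the Fc receptor gamma chain, which hand the signal to kinases, exchange factors such as VAV1 and DOCK2 and the opposing phosphatase SHIP1 (Inpp5d). Monocyte-derived macrophages share most pan-myeloid genes, so RNA of whole retina does not separate them from microglia.

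Each library held 31743404 to 36438248 counts, and a single count was worth 0.0280 to 0.0314 CPM (read counts scaled to a common library size). Cd274 averaged 0.335 ± 0.0759 CPM in the knockout libraries and 4.48 ± 0.544 CPM in the control libraries (SD, n = 4 each), as the labels imply. Xist held 97550 to 119479 counts in the knockouts and 108626 to 164308 in the controls, and the Y-linked Eif2s3y held at most 6 counts in any library, whereas Y-linked Kdm5d held 452 to 963 counts in the knockouts and 0 to 4 in the controls. The labels give no sex, and the part of this difference in the results was not tested. The 14 lens genes summed to 2046 CPM in knockout 3 and to 4858 and 1373 CPM in controls 2 and 3, and stayed under 100 CPM in the other 5 libraries. The markers of the label were detected in every library: Aif1 held 25 to 119 counts, P2ry12 114 to 188 and Trem2 52 to 183.

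Microglial and macrophage transcripts were higher in the PD-L1 knockout retinas for 4 genes: Fcgr1, Olfml3, Laptm5 and Itgam. No member was called lower. Of the 36 members, 35 passed the filter on low counts and were tested, and Cst7 was not. These 4 of 35 stand beside 1.20% of all 16861 tested genes called higher (203 genes), by edgeR's quasi-likelihood test at an adjusted p under 0.05. In either direction 2.55% of all tested genes were called. The members were chosen with earlier results of these data known, so these shares are a description. Another 31 members did not pass, although 30 of the 35 had a positive log2 fold change (knockout over control) and 16 were higher at an unadjusted p under 0.05, against 10.5% of all tested genes. The median log2 fold change over the 35 was 0.62, and that of all tested genes was 0.00. All 4 knockout libraries lay above all 4 controls for 9 members, and this held for 5.19% of all tested genes. No member had all knockouts below all controls, which held for 5.78% of all tested genes. With DESeq2 12 members were called higher, beside 3.67% of all tested genes. Without the 3 libraries rich in lens RNA no member was called, beside 0.0403% of all tested genes called higher, and the 4 genes stood at log2 fold changes of 0.90 to 1.54. In bulk retina, more cells of a type and more RNA per cell cannot be told apart.

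**Figure D1:**
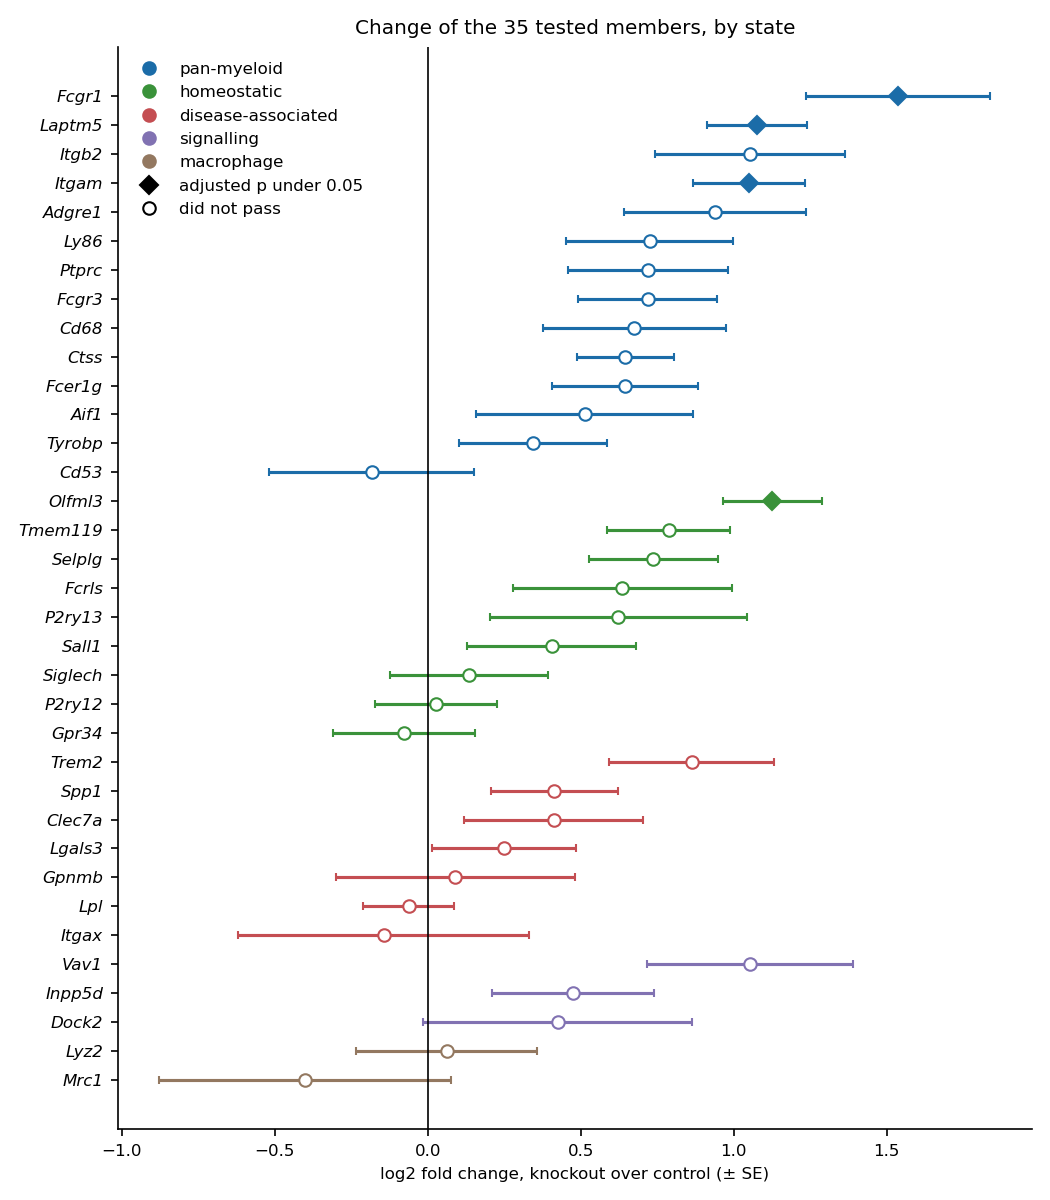
Log2 fold change (knockout over control, horizontal axis) with its standard error for each of the 35 tested members, grouped by state from pan-myeloid at the top to macrophage at the bottom. Filled diamonds mark the 4 members past an adjusted p of 0.05 and open circles the 31 that did not pass. The values run from -0.40 for Mrc1 to 1.54 for Fcgr1.

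Values were summarised by state, beside 1.20% of all tested genes called higher and 5.19% with every knockout above every control. The pan-myeloid genes had a median log2 fold change of 0.72, with 3 of 14 called higher and 7 of 14 with no overlap between the groups. The homeostatic genes had a median of 0.62, with 1 of 9 called, and spanned -0.08 to 1.13. The disease-associated genes had a median of 0.25 over the 7 tested, with none called and every member overlapping between the groups. The signalling genes stood at 0.47 (3 genes) and the macrophage genes at -0.17 (2 genes). Whether the states differ from each other was not tested.

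The start regions of the 4 called genes are shown because each gene passed the threshold. PU.1, the master transcription factor of myeloid cells, binds the purine-rich PU box GAGGAA. Shared regulation of these genes was not tested. Each window runs from 250 bases before to 50 bases after a RefSeq start site (GRCm38.p6), 5′ to 3′ on the strand of the gene, with GAGGAA or its reverse complement TTCCTC in capitals. Laptm5 is at chr4:130913066-130913365 (plus strand), Itgam at chr7:128062390-128062689 (plus), Fcgr1 at chr3:96293920-96294219 (minus) and Olfml3 at chr3:103737952-103738251 (minus).
Laptm5: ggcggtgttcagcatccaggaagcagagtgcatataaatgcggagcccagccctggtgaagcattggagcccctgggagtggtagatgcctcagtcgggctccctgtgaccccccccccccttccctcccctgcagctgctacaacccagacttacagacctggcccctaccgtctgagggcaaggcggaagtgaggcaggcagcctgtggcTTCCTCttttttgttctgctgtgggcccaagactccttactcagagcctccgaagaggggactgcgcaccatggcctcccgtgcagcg
Itgam: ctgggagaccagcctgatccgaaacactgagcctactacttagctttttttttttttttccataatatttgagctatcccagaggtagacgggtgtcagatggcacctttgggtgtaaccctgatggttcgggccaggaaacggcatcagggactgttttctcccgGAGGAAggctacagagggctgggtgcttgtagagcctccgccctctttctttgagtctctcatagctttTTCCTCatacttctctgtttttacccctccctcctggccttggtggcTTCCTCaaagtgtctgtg
Fcgr1: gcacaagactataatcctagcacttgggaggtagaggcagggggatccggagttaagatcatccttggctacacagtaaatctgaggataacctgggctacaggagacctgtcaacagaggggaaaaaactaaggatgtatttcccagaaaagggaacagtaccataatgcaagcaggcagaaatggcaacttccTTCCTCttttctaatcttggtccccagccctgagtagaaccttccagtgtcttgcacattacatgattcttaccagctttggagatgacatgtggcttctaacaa
Olfml3: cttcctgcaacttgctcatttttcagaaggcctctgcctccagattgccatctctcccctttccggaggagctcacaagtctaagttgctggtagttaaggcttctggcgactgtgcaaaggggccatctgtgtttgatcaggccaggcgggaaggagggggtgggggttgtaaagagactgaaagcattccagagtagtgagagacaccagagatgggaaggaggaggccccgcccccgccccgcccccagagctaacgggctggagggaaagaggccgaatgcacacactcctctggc
The hexamer starts 38 bases before the start site in Laptm5 and 55 bases before it in Fcgr1. Itgam holds it 84 and 15 bases before and from base 33 after the start. Olfml3 does not hold these letters in this window. A window was found for 29 of the 36 members (35 windows), and 21 of the 35 windows (60.0%) hold the hexamer on either strand, against 28.3% of the 32851 mouse windows of the same length. The longer GAGGAAGT, which contains the hexamer, is in 14.3% of the member windows and 3.20% of all, namely in those of Cd53, Ctss, Inpp5d, Spp1 and Vav1. A match is a run of letters and not a measured site.

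Among the pan-myeloid genes, Laptm5, which encodes a lysosomal membrane protein of blood-derived cells, rose. Laptm5 (Entrez gene 16792, chromosome 4, 130912890 to 130936148) stood at 11.2, 10.6, 12.6 and 12.2 CPM in knockouts 1 to 4, against 7.05, 5.22, 5.55 and 4.26 CPM in controls 1 to 4. Every knockout lay above every control, and Laptm5 rose by 1.08 on the log2 scale (SE 0.16, edgeR adjusted p = 0.00592). The call held in each of the 8 fits that left out 1 library.

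Itgam and Itgb2 encode the alpha and beta chains of complement receptor 3 (CD11b and CD18), the integrin by which microglia bind complement-coated material. Itgam (Entrez gene 16409, chromosome 7, 128062640 to 128118491) was at 8.74, 6.29, 8.15 and 8.06 CPM in the knockouts, against 4.08, 4.02, 2.77 and 4.20 CPM in the controls. The groups did not overlap and Itgam rose by 1.05 on the log2 scale (SE 0.18, edgeR adjusted p = 0.0116). Without knockout 3 it missed the threshold (adjusted p = 0.0518). Itgb2, which other leukocyte integrins share, had the same log2 fold change of 1.05 but a wider error (SE 0.31, adjusted p = 0.0861): knockout 2, at 3.25 CPM, lay below control 1, at 3.32 CPM, while controls 2 to 4 were at 1.01 to 1.76 CPM.

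Fcgr1, the high-affinity receptor for immunoglobulin G (CD64), had the highest fold of the members. Fcgr1 (Entrez gene 14129, chromosome 3, 96282909 to 96293969) stood at 4.44, 1.94, 3.16 and 4.09 CPM in the knockouts, against 1.44, 1.35, 0.924 and 0.977 CPM in the controls. Knockout 2 was the lowest knockout and still above every control. Fcgr1 rose by 1.54 (SE 0.30, edgeR adjusted p = 0.0217), but the call ended without knockout 1, 3 or 4 or control 3 (adjusted p up to 0.0804). Fcgr3, the low-affinity receptor CD16, was at 0.72 on the same scale (SE 0.23, adjusted p = 0.104). Its lowest knockout lay just above its highest control, and both round to 4.70 CPM. Reads of Fcgr3 can be shared with its close relative Fcgr4, which was at 1.13 ± 0.0325 CPM in the knockouts and 0.682 ± 0.378 CPM in the controls (SD, n = 4 each). Fcer1g, the gamma chain that both receptors signal through, had a value of 0.64 (SE 0.24, adjusted p = 0.15), and Tyrobp, the adaptor of TREM2, one of 0.34 (SE 0.24, adjusted p = 0.425).

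**Figure D2:**
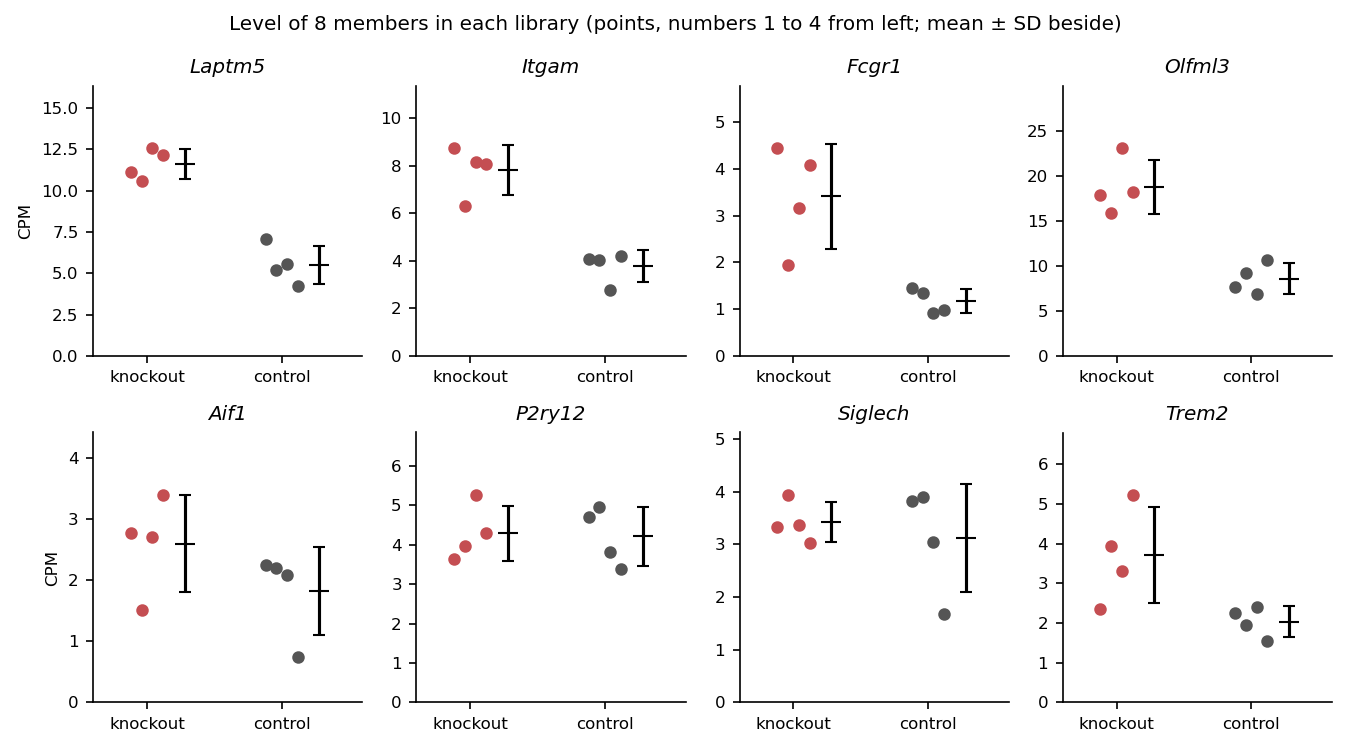
Level in CPM (vertical axis, from 0) of 8 members in the 4 knockout and the 4 control libraries, 1 point per library with the mean ± SD beside the points. Laptm5, Itgam, Fcgr1 and Olfml3 in the upper row show no overlap between the groups, and Aif1, P2ry12, Siglech and Trem2 in the lower row do.

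The remaining pan-myeloid genes did not pass. Ctss, the lysosomal protease cathepsin S and the member with the highest level per length (32.6 FPKM, or fragments per kilobase of gene length and library size, in the knockouts and 20.6 FPKM in the controls), came closest. Ctss was at 45.7, 39.8, 51.7 and 50.9 CPM in the knockouts, against 38.6, 34.5, 24.0 and 23.2 CPM in the controls. Its groups did not overlap, and it stood at 0.65 on the log2 scale (SE 0.16, edgeR adjusted p = 0.0509). The tyrosine phosphatase CD45 (Ptprc) and Ly86, the partner of a Toll-like receptor relative, also had no overlap, with values of 0.72 (adjusted p = 0.145) and 0.73 (adjusted p = 0.158). Adgre1, which encodes the macrophage antigen F4/80, was at 0.94 (adjusted p = 0.105) and the lysosomal glycoprotein gene Cd68 at 0.68 (adjusted p = 0.219), both with overlap. The tetraspanin gene Cd53 was the only pan-myeloid member with a negative value, -0.18 (SE 0.33, adjusted p = 0.786), and control 1 was its highest library at 6.36 CPM.

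Aif1 encodes IBA1, the protein most used to stain microglia. Aif1 (Entrez gene 11629, chromosome 17, 35170986 to 35176083) stood at 2.77, 1.51, 2.72 and 3.40 CPM in the knockouts, against 2.26, 2.20, 2.09 and 0.740 CPM in the controls. Knockout 2 lay below controls 1 to 3, and control 4 stood far below the other controls. On the log2 scale the difference was 0.51 (SE 0.35, edgeR adjusted p = 0.418).

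Among the homeostatic genes Olfml3, which encodes a secreted olfactomedin-like glycoprotein, was the only gene called. Olfml3 (Entrez gene 99543, chromosome 3, 103735394 to 103738001) was at 17.9, 15.9, 23.1 and 18.2 CPM in the knockouts, against 7.62, 9.21, 6.90 and 10.7 CPM in the controls. The groups did not overlap and Olfml3 rose by 1.13 (SE 0.16, edgeR adjusted p = 0.00446), in each of the 8 fits without 1 library as well. Of 6 markers of the pigment epithelium, which touches the retina, 1 rose, beside 1.20% of all tested genes called higher. This was Rgr (1.06, edgeR adjusted p = 0.0444), whose groups overlapped, and the other 5 did not pass. All 6 had a positive log2 fold change, with a median of 0.93, above the 0.62 of the members. Of them, 5 were higher at an unadjusted p under 0.05, against 10.5% of all tested genes. The 6 markers summed to 127 to 289 CPM in the knockouts and 68.8 to 154 CPM in the controls. Knockout 1 lay below controls 1 and 2, and the part of these markers in the Olfml3 result was not tested.

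Tmem119 and Selplg, neighbours on chromosome 5, lay close to the threshold. Tmem119, a membrane protein that marks microglia against other macrophages, was at 3.82, 5.33, 6.24 and 5.72 CPM in the knockouts, against 3.57, 2.70, 3.05 and 2.90 CPM in the controls. Its groups did not overlap (log2 fold change 0.79, SE 0.20, edgeR adjusted p = 0.0568). Selplg, the selectin ligand PSGL-1, had a value of 0.74 (SE 0.21, adjusted p = 0.0795), with knockout 2, at 4.72 CPM, below control 4, at 4.76 CPM. Fcrls, an Fc receptor-like gene of microglia, was at 0.64 (SE 0.36, adjusted p = 0.32) and Sall1, a transcription factor of microglial identity, at 0.41 (SE 0.28, adjusted p = 0.41).

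P2ry12, the ADP receptor that steers microglial processes to injury, overlapped between the groups. P2ry12 (Entrez gene 70839, chromosome 3, 59216271 to 59262985) stood at 3.65, 3.97, 5.26 and 4.29 CPM in the knockouts, against 4.70, 4.96, 3.82 and 3.37 CPM in the controls. The difference on the log2 scale was 0.03 (SE 0.20, edgeR adjusted p = 0.954). Siglech, a sialic acid-binding lectin that signals through TYROBP, was at 3.34, 3.94, 3.36 and 3.03 CPM in the knockouts, against 3.83, 3.90, 3.05 and 1.69 CPM in the controls. Here too the groups overlapped (0.13, SE 0.26, adjusted p = 0.795). Gpr34, a receptor for lysophosphatidylserine, was at -0.08 (SE 0.23, adjusted p = 0.877), and P2ry13, a second ADP receptor, at 0.62 (SE 0.42, adjusted p = 0.405).

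The genome around 3 of these genes limits their counts. P2ry12 and P2ry13 lie inside Med12l on the opposite strand, 5390 bases apart, and Gpr34 lies inside Cask on the opposite strand (GENCODE M21, GRCm38). Shared exon sequence is 9 of 2546 bases for P2ry12 and 0 for P2ry13 and Gpr34. Without a known strand setting, unspliced RNA of the host genes cannot be told apart from these receptors. Med12l was at 2.59 FPKM in the knockouts and 2.81 FPKM in the controls (log2 fold change -0.14, SE 0.10), and P2ry12 was at 1.61 FPKM in the knockouts and 1.56 FPKM in the controls. Cask was at 7.93 FPKM in the knockouts and 7.20 FPKM in the controls (0.12, SE 0.10), and Gpr34 at 0.514 FPKM in the knockouts and 0.536 FPKM in the controls. The part of the hosts in these values was not tested.

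Ratios within a library show the same levels without scaling between libraries. The genes of the ratios were chosen with their fold changes known, so the ratios restate those values and are given as a description, with no test. The log2 ratio of P2ry12 to Laptm5 averaged -1.44 ± 0.149 in the knockouts and -0.38 ± 0.231 in the controls (SD, n = 4 each), a difference of -1.06. All 4 knockouts lay below all 4 controls. The ratio of Siglech to Laptm5 was -1.75 ± 0.250 in the knockouts and -0.86 ± 0.364 in the controls, also without overlap. Within the homeostatic genes the ratio of Olfml3 to P2ry12 was 2.11 ± 0.123 in the knockouts and 1.02 ± 0.429 in the controls, with every knockout above every control. Aif1 to Laptm5 differed by -0.53 and overlapped between the groups.

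**Figure D3:**
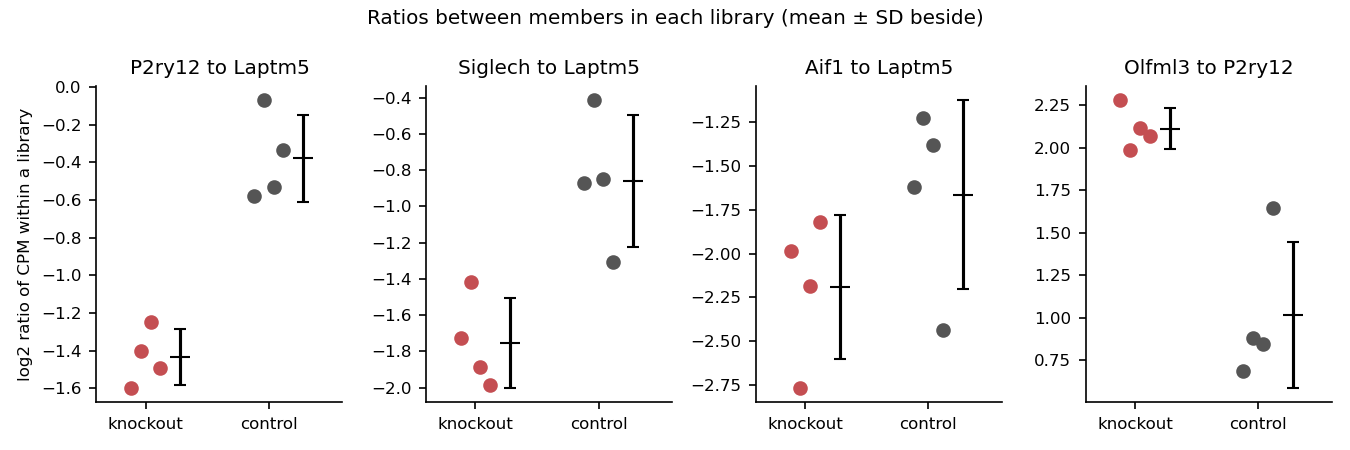
Log2 ratio of the CPM of 2 members within each library (vertical axis), 1 point per library with mean ± SD beside, knockouts left and controls right in each panel. The knockouts lie wholly below the controls for P2ry12 to Laptm5 and Siglech to Laptm5, wholly above them for Olfml3 to P2ry12, and overlap them for Aif1 to Laptm5.

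No disease-associated gene passed. Trem2, the lipid-sensing receptor at the head of that state, came closest. Trem2 (Entrez gene 83433, chromosome 17, 48346401 to 48352276) stood at 2.35, 3.94, 3.30 and 5.23 CPM in the knockouts, against 2.26, 1.95, 2.40 and 1.54 CPM in the controls. Only knockout 1 and control 3 crossed, and Trem2 stood at 0.86 on the log2 scale (SE 0.27, edgeR adjusted p = 0.102). Clec7a, the beta-glucan receptor dectin-1, was at 0.41 (SE 0.29, adjusted p = 0.433). Itgax, the integrin chain CD11c that is low in resting microglia, held 5 to 22 counts in the knockouts and 12 to 19 in the controls (-0.14, SE 0.48, adjusted p = 0.891). Cst7, an inhibitor of cysteine proteases, held 3, 15, 7 and 21 counts in the knockouts and 20, 5, 3 and 0 in the controls.

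Genes of this state that other retinal cells also make were not called either. Spp1, which encodes osteopontin and is made by ganglion cells too, was at 39.2 ± 10.5 CPM in the knockouts and 29.4 ± 8.68 CPM in the controls (SD, n = 4 each; log2 fold change 0.41, SE 0.21, edgeR adjusted p = 0.27). Lpl, which releases fatty acids from lipoproteins, was at -0.06 (SE 0.15, adjusted p = 0.841), and Lgals3, the glycan-binding galectin-3, at 0.25 (SE 0.23, adjusted p = 0.559). Gpnmb, a glycoprotein of phagocytes and pigment cells, ranged from 16.2 to 36.2 CPM in the knockouts and from 11.5 to 51.1 CPM in the controls (0.09, SE 0.39, adjusted p = 0.918). Control 1 was its highest library, and the 5 pigment cell markers were highest there as well: they summed to 37.9 to 84.3 CPM in the knockouts, 151 CPM in control 1 and 34.7 to 82.0 CPM in the other controls. The part of pigment cells in the Gpnmb value was not tested. Control 1 was the highest control for 22 of the 35 tested members, and its pan-myeloid median was the highest of the controls too. Without control 1 the median of the disease-associated genes was 0.64 in place of 0.25.

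Of the signalling genes, Vav1, an exchange factor that activates Rac after receptor engagement, had the highest value, 1.05 (SE 0.34, edgeR adjusted p = 0.107). Its levels were 1.87, 1.25, 2.91 and 2.52 CPM in the knockouts, against 1.41, 1.13, 0.801 and 0.769 CPM in the controls. Knockout 2 lay below control 1. Inpp5d was at 0.47 (SE 0.26, adjusted p = 0.315) and Dock2 at 0.43 (SE 0.44, adjusted p = 0.601). Of the macrophage genes, Mrc1, the mannose receptor of perivascular macrophages, held 11 to 53 counts in the knockouts and 19 to 67 in the controls (-0.40, SE 0.48, adjusted p = 0.656). Lyz2, lysozyme of macrophages and neutrophils, was at 21.4 ± 3.84 CPM in the knockouts and 20.5 ± 12.1 CPM in the controls (SD, n = 4 each; 0.06, SE 0.30, adjusted p = 0.927). Its near copy Lyz1, with which reads can be shared, held at most 17 counts in any library.

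The members spanned a wide range of levels per length, with Ctss at 26.6, Spp1 at 20.7, Lyz2 at 19.8 and Tyrobp at 11.3 FPKM as the highest means over all 8 libraries and Itgax at 0.105 FPKM as the lowest. Of the 15 members above 2 FPKM, 2 were called higher (Laptm5 and Olfml3; 1.41% of all tested genes of that class), with a median log2 fold change of 0.64. Of the 14 between 0.5 and 2 FPKM, 2 were called higher (Itgam and Fcgr1; 1.24% of that class), with a median of 0.63. None of the 6 tested below 0.5 FPKM was called, where 0.383% of the class was called higher, and their median was 0.42. All tested genes had medians of 0.00 in the upper and middle classes and -0.05 in the lowest.

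**Figure D4:**
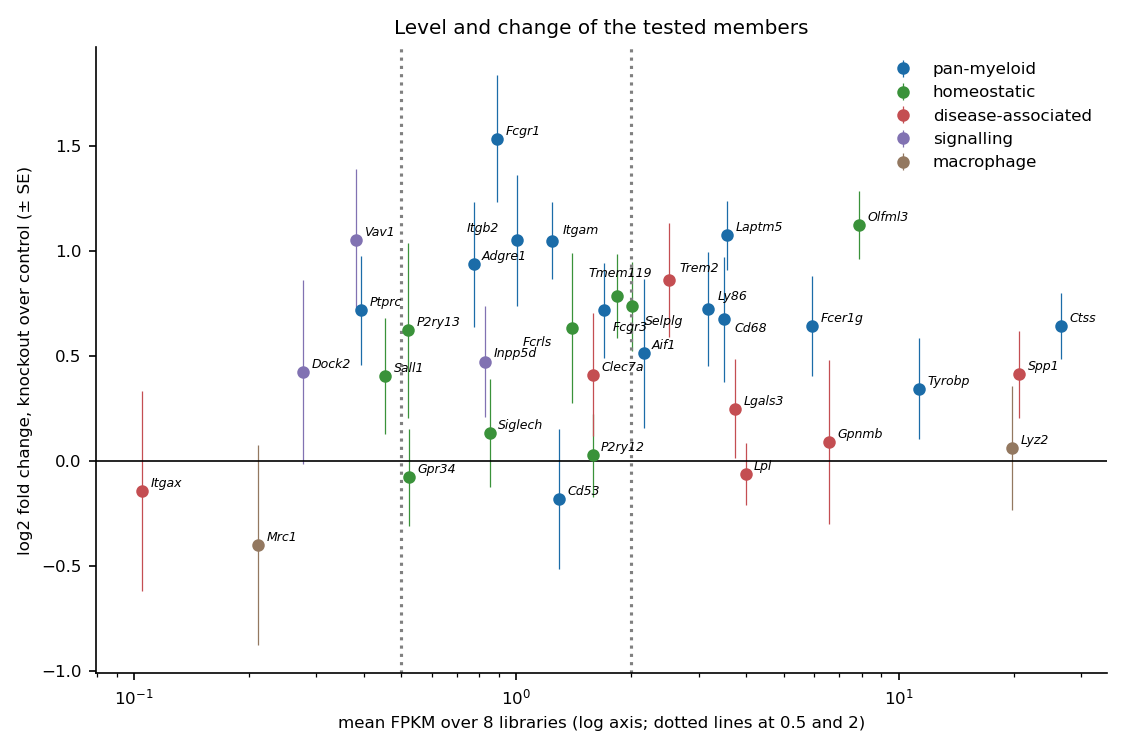
Mean level per length in FPKM over the 8 libraries (horizontal log axis) against the log2 fold change of knockout over control (vertical axis, ± SE) for the 35 tested members, coloured by state. The called genes Fcgr1 and Itgam lie between the dotted lines at 0.5 and 2 FPKM, and Laptm5 and Olfml3 lie above 2 FPKM.

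Within each group the members followed the library. Knockout 2 was the lowest knockout for 29 of the 35 tested members (82.9%), against 21.4% of all tested genes. Among the controls, control 1 was the highest for 22 members (62.9%, against 19.5% of all tested genes) and control 4 the lowest for 18 (51.4%, against 33.8%). The 14 pan-myeloid genes summed to 119, 96.1, 121 and 126 CPM in the knockouts and 95.3, 75.5, 60.9 and 52.4 CPM in the controls. The 9 homeostatic genes summed to 42.8 to 59.5 CPM in the knockouts and 29.3 to 36.2 CPM in the controls, also without overlap. Each separation rests on the gene with the highest level per length. Without Ctss the pan-myeloid sums were 56.3 to 74.9 CPM in the knockouts and 29.2 to 56.7 CPM in the controls, and without Olfml3 the homeostatic sums were 26.9 to 36.4 CPM in the knockouts and 19.3 to 27.8 CPM in the controls. In both, knockout 2 lay below control 1. The 8 disease-associated genes overlapped, at 78.2 to 116 CPM in the knockouts and 63.1 to 122 CPM in the controls.

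**Figure D5:**
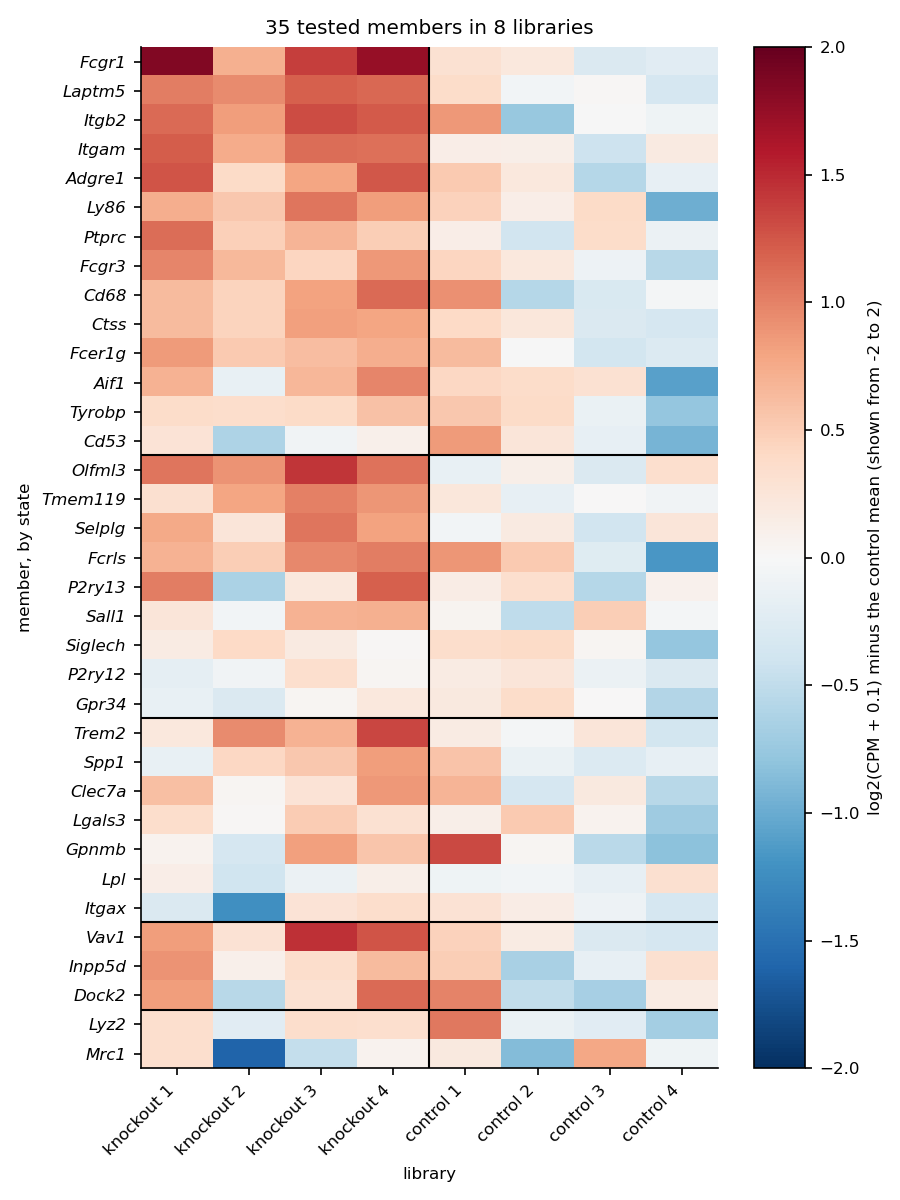
Log2(CPM + 0.1) minus the control mean for the 35 tested members (rows, by state) in the 4 knockout libraries (left) and the 4 control libraries (right), red for higher and blue for lower. Knockout 2 is the lowest knockout in 29 of the 35 rows, and control 1 is the highest control in 22.

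Other genes of the same cells were read as well. Their lists too were chosen with earlier results of these data known, so they are not an independent sample. Of 47 further microglial and macrophage genes, 8 rose, beside 1.20% of all tested genes, and 39 did not pass, with a median log2 fold change of 0.73. They were led by C1qa of the complement starter C1q (1.20, edgeR adjusted p = 0.00349), Csf1r, the growth factor receptor microglia depend on (1.03, adjusted p = 0.00478), C1qb (0.94, adjusted p = 0.00808) and the transporter gene Slco2b1 (0.96, adjusted p = 0.0183). PU.1 itself, encoded by Spi1, was at 0.94 (SE 0.37, adjusted p = 0.175), with 52 to 89 counts in the knockouts and 18 to 55 in the controls. Of 16 further disease-associated genes tested, 5 rose, beside the same 1.20%, and 11 did not pass, with a median of 0.45. Cd9 (0.64), Ctsd (0.68), Ctsz (0.60) and Csf1 (0.87) had the smallest p among them, and these genes are active in many retinal cells.

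Markers of other immune cells were measured beside the members. In the T and NK cell list 9 of 12 genes stayed under 10 counts in every library, and Cd3e, of the T cell receptor complex, held at most 5. The list summed to 1.62 to 2.88 CPM in the knockouts and 1.15 to 1.85 CPM in the controls. B cell markers summed to 0.252 to 0.435 CPM in the knockouts and 0.237 to 0.847 CPM in the controls, and neutrophil markers to 0.622 to 2.58 CPM in the knockouts and 0.308 to 0.941 CPM in the controls, with knockout 2 the highest. Monocyte markers overlapped, at 7.39 to 14.1 CPM in the knockouts and 8.01 to 14.3 CPM in the controls, as did perivascular macrophage markers, at 18.1 to 21.4 CPM in the knockouts and 15.2 to 20.8 CPM in the controls. Single genes made up most of both sums: Lyve1, which lymphatic vessels also make, held 429 to 513 counts in the knockouts and 357 to 465 in the controls, and the integrin gene Itga4 held 233 to 437 counts in the knockouts and 209 to 457 in the controls. Control 2, the highest control of the perivascular sum, held 139 counts (4.37 CPM) of Cbr2 from that list. Every other library held at most 11 counts of Cbr2. Ly6c2, which defines inflammatory monocytes, held 2 to 15 counts in the knockouts and 0 to 6 in the controls. Of these 5 lists, no gene was called, with 5 perivascular, 3 monocyte, 1 neutrophil, 1 T and NK and no B cell gene tested. Markers of red blood cells were haemoglobin genes and Alas2. They summed to 1.68 to 4.03 CPM in the knockouts and 10.1 to 14.5 CPM in the controls. The 4 that were tested all fell, beside 1.35% of all tested genes called lower. Of the vessel wall markers 1 of 9 rose, beside 1.20% of all tested genes called higher. This was Vwf of the clotting pathway (1.58, edgeR adjusted p = 0.0444). Its groups overlapped, with control 4 at 4.53 CPM and knockout 4 at 4.52 CPM. The vessel wall list summed to 287 to 311 CPM in the knockouts and 212 to 297 CPM in the controls. All 9 had a positive log2 fold change, with a median of 0.48. Of them, 4 were higher at an unadjusted p under 0.05, against 10.5% of all tested genes. The 9 markers of Mueller glia (retinal glial cells) were also all positive (median 0.18), with 3 at such a p and none called. Ganglion cell and rod markers had medians of 0.01 and 0.07, pigment cell markers -0.44 and lens genes -1.7. The part of these lists in the members' values was not tested.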

How the data were processed

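Retinal RNA of 8 libraries was isolated with TRIzol and made into libraries with the VAHTS Universal V6 kit, per the labels' protocols. The submitters' processing notes name fastp, HISAT2, HTSeq and mm10; the sources used here give no version, annotation or strand setting. The authors deposited whole read counts per gene and FPKM; each deposited FPKM equals its count over the column total and a fixed gene length. Columns were matched by title.

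Counts were fitted with edgeR 4.0.16 in R 4.3.3 (TMM, filterByExpr with minimum count 10 and total 15, quasi-likelihood test, Benjamini-Hochberg over 16861 genes, threshold 0.05). SE is the absolute log2 fold change over the square root of F. On simulated counts of 16861 genes the fit recovered 76% of 200 genes changed by a fold of 2 up or down, with 11 false calls. These genes were drawn at random from all tested genes, so this share does not apply to the members. Ratios used log2 CPM with a prior count of 2. A permutation test was planned for them, but its p-values are not reported, because the genes were picked with their fold changes known. Members and lists were chosen with earlier results of these data known. Full values were planned for called members, the markers Aif1, P2ry12 and Trem2 and the ratio genes, and of other lists the 4 called genes with the smallest p. Library values of other members (Ctss, Tmem119, Vav1, Cst7) and the genes Spi1, Kdm5d, Lyve1, Itga4, Cbr2 and Lck, and sums without the highest gene, were added after their values were seen. Medians and sign counts of the marker lists of other cell types were added in the same way. Gene positions and promoter windows are RefSeq GRCm38.p6, matched by Entrez identifier. Alternatives were other scalings, filters and dispersions, DESeq2 1.42.0, limma 3.58.1, left-out libraries, a replicate block and lens RNA.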

Additional observations from a re-analysis of the deposited data

Results flagged for a closer look

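In 5 of the 72 groups of 4 libraries checked (36 members in each genotype), 1 library stood apart from the other 3 by a gap test; chance gives about 1 in 20. Knockout 4 was high for Tyrobp at 8.21 CPM (next 7.06). Knockout 2 was low for Lyz2 at 15.6 CPM (next 23.1). Control 4 was low for Aif1 at 0.740 CPM (next 2.09), control 3 low for Itgam at 2.77 CPM (next 4.02), and control 1 high for Spp1 at 42.4 CPM (next 26.2).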

How the results depend on the processing

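Under the 21 alternatives, 4 members rose in 11, and never did a member fall past the threshold. The members called were 7 with no filter on low counts, 12 with DESeq2 and 0 without the 3 libraries of a lens sum over 100 CPM, which leaves 3 knockouts and 2 controls; there Laptm5, Itgam, Fcgr1 and Olfml3 had log2 fold changes of 1.01, 0.90, 1.54 and 0.93 (adjusted p from 0.142 to 0.379). Leaving out 1 library gave 2 to 7 members and 108 to 3209 of all genes, the highest of both without control 4. The 7 members there go with a rise in calls over all genes, in either direction. Over all genes the counts were 690 with no filter, 1392 with DESeq2, 228 with limma-trend on log2(FPKM + 1), 15 without the lens-rich libraries and 264 with the lens sum as a covariate. Library size only called 207 higher and 131 lower, against 203 and 227 with TMM. With the title number as a replicate block 228 genes and the same 4 members were called. The labels do not say that the numbers pair the libraries. The correlations of same-number deviations were 0.213, -0.041, 0.121 and 0.00629, which without a reference cannot exclude a pairing.

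Uncalled members near 0 changed sign, and the cause was not tested. Leaving out 1 library gave log2 fold changes of -0.086 to 0.12 for P2ry12, -0.14 to 0.74 for Gpnmb, -0.14 to 0.55 for Lyz2, -0.24 to 0.064 for Gpr34, -0.14 to 0.058 for Lpl, -0.38 to 0.13 for Itgax, -0.42 to 0.17 for Cd53 and -0.070 to 0.27 for Siglech. Without the lens-rich libraries P2ry12 was at -0.017, Gpnmb at -0.46, Lyz2 at -0.26 and Gpr34 at 0.092. With the lens covariate Lyz2 was at -0.0022 and Gpr34 at 0.037. The ratios, whose alternatives were chosen after seeing the data, kept their direction: leaving out 1 library gave -1.13 to -0.96 for P2ry12 to Laptm5, -1.04 to -0.74 for Siglech to Laptm5, -0.78 to -0.33 for Aif1 to Laptm5 and 0.99 to 1.31 for Olfml3 to P2ry12. Standard errors of Itgax and Mrc1, with few counts, reached 0.48, which limits what was detectable for them.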
